A study of Mus musculus with 18 samples.

Results

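The mouse hippocampus expressed 263 zinc finger genes of the Zfp series at an appreciable level. They were taken from 392 rows of the count table whose symbol is Zfp followed by a number and an optional letter, out of 22063 genes in all, and were chosen by their mean level over the 18 libraries, at least 5 CPM (the count over the library total, scaled to a common library size). That they are expressed is therefore a description and no finding. Zfp58 lay just inside the limit at 5.003 CPM, with Zfp583 at 5.028 and Zfp971 at 5.065 CPM, and Zfp108 lay just outside at 4.941 CPM, with Zfp958 at 4.838 and Zfp791 at 4.791 CPM. The other 129 rows were under the limit, 9 of them at 0 in every library.

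The samples were whole hippocampi of mice in 4 groups. The D-V group (n = 5) was turned in both directions with vision blocked, which the labels name the Coriolis illusion. The D+V group (n = 5) was turned in both directions with vision free, the S-V group (n = 5) was turned in a single direction with vision blocked, and the Control group (n = 3) was left as a blank control. Tissue was collected straight after the rotation to study vestibular spatial disorientation, and polyadenylated RNA was sequenced. Strain, sex and age are not stated. Nothing in the labels ties a sample to its own animal, so p-values here reflect how far these samples spread, which may be technical.

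Most Zfp genes encode transcription factors of the Cys2-His2 zinc finger kind. Each finger folds around a zinc ion held by a pair of cysteines and a pair of histidines, and a row of fingers reads a stretch of DNA. Many also carry a KRAB domain, which binds the co-repressor Trim28 and through it brings histone methylation and silencing to retroelements and imprinted regions. Other genes of the same numbering lack KRAB, and a few bind RNA or proteins in place of DNA.

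By these features the 263 members fell into 2 classes of nearly equal size. A KRAB domain was found by profile search in 132 members, among them Zfp809, which silences murine leukaemia proviruses, and Zfp445, which keeps genomic imprints. The other 131 members had no KRAB hit, among them Zfp281 and Zfp148, which bind GC-rich promoters. KRAB members had a median of 12 finger patterns in the longest coding isoform, and members without KRAB had 7. Their transcripts also differed in base composition, with a median GC content of 42.9% for KRAB members and 50.6% for members without KRAB. Over all 263 members it was 46.2%, against 50.6% over the 14743 tested genes with a known GC content. The split into these classes was made after the files were examined.

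Single fingers of the 4 members that passed the test below show what the genes share and how they differ. The sequences are coding DNA from the GENCODE M21 transcripts, read 5′ to 3′, with the codons of the zinc-binding cysteines and histidines in capitals. In Zfp748 and Zfp597 the finger shown runs on into the linker that joins it to the next finger. Zfp748 had 23 finger patterns, Zfp597 had 7, Zfp575 had 6 and Zfp281 had 3.
Zfp748: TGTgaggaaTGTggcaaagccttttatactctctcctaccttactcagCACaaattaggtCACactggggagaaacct
Zfp597: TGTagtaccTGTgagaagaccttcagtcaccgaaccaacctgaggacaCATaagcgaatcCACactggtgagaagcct
Zfp281: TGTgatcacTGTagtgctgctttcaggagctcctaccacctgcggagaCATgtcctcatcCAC
Zfp575: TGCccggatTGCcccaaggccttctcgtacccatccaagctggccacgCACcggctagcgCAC
The coding GC content of these genes was 41.8% in Zfp748, 44.2% in Zfp597, 49.5% in Zfp281 and 70.0% in Zfp575, so the gene that fell was the most GC-rich of the 4.

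Promoters are shown for the 3 members that rose, since they moved together in D+V against Control. Each is 250 bases before to 50 bases after the start in RefSeq on GRCm38.p6. They are Zfp748 at chr13:67553103-67553402 on the minus strand, Zfp597 at chr16:3872325-3872624 on the minus strand and Zfp281 at chr1:136624651-136624950 on the plus strand. Capitals mark matches on either strand to 3 motifs, which do not overlap one another here: the GC box GGGCGG, the CCAAT box CCAAT and the cyclic AMP response element TGACGTCA.
Zfp748: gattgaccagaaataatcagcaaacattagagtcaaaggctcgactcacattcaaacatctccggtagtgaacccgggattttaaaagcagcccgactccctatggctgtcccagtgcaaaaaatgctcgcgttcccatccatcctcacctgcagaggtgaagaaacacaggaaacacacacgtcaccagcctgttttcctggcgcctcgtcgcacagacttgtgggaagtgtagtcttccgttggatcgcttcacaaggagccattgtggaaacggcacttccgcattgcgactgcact
Zfp597: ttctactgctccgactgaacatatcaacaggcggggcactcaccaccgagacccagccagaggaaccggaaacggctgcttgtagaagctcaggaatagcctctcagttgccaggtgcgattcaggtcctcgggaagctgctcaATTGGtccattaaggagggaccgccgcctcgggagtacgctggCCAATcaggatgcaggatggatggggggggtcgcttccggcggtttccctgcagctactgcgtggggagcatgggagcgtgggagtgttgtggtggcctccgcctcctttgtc
Zfp281: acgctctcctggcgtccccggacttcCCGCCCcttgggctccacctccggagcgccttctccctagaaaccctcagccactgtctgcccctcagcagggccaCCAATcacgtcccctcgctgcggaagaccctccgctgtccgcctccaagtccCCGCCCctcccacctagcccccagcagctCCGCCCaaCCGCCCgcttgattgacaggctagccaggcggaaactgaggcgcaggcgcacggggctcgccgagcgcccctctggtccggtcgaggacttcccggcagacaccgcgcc
Zfp281 held 4 GC boxes and 1 CCAAT box, Zfp597 held 2 CCAAT boxes and Zfp748 held none of these motifs. RefSeq entries were matched for 214 members. A GC box was present in 47.7% of these promoters, against 35.9% of all 27025 promoters, and a CCAAT box in 45.3% of members, against 37.9% of all. By class, a GC box was present in 38.3% of KRAB member promoters and 58.6% of promoters of members without KRAB. For the CCAAT box these shares were 49.6% and 40.4%. The median promoter GC content was 56.5% for members and 52.7% for all. The cyclic AMP response element was present in 2.8% of member promoters and 1.88% of all. A match describes these letters in this window and shows no binding.

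The levels of the members spanned a wide range. The median was 15.5 CPM, 5 members were above 100 CPM and 79 were under 10 CPM. Zfp365, which encodes a DISC1-binding protein, was the highest at 317 CPM. It was followed by Zfp706 at 257 CPM, the RNA-binding Zfp106 at 244 CPM, the ubiquitin ligase Zfp91 at 146 CPM, the Bub3-binding and splicing-linked Zfp207 at 111 CPM, Zfp651 at 95.2 CPM, Zfp664 at 91.1 CPM and Zfp871 at 88.4 CPM. Per kilobase of transcript Zfp365 led with 74.3 CPM per kb, then Zfp207 with 71.1, Zfp740 with 61.95, Zfp706 with 58.1 and Zfp969 with 44.9 CPM per kb. KRAB members had a median of 3.26 CPM per kb and members without KRAB 5.35 CPM per kb.

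The 2 highest members passed the test in no comparison. Zfp365 averaged 304 ± 33.6 CPM in D-V, 339 ± 32.4 in D+V, 321 ± 12.4 in S-V and 294 ± 37.3 in Control (SD, n = 5, 5, 5 and 3), with overlapping libraries in every pair of groups. Zfp706 averaged 257 ± 13.1 CPM in D-V, 245 ± 16.9 in D+V, 268 ± 2.93 in S-V and 256 ± 4.74 in Control. Its S-V libraries were all above the Control libraries, and the other groups overlapped with both.

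Library totals ran between 15.03 and 25.31 M estimated counts. The summed level of all Zfp members was 0.604 ± 0.0183% of counts in D-V, 0.647 ± 0.0274% in D+V, 0.618 ± 0.00589% in S-V and 0.621 ± 0.038% in Control (SD). Hippocampal neuron markers (6 of 6 found) summed to between 1969 and 2790 CPM over all libraries. Choroid plexus markers (6 of 6) summed to between 85.3 and 10670 CPM in D-V, 64.3 and 8889 CPM in D+V, 127 and 4099 CPM in S-V and 87.5 and 1069 CPM in Control, and red blood cell markers (5 of 5) to between 918 and 1750 CPM in D-V, 386 and 3189 CPM in D+V, 602 and 995 CPM in S-V and 482 and 642 CPM in Control. Endothelium and pericyte markers (5 of 5) did not overlap between D+V and either D-V or Control, with sums of 154 to 168 CPM in D-V, 126 to 152 CPM in D+V, 151 to 166 CPM in S-V and 164 to 187 CPM in Control. Thalamus and habenula markers (6 of 6) summed to 53.6 to 78.8 CPM in D-V, 50.6 to 91.6 CPM in D+V, 67.6 to 83.1 CPM in S-V and 76.2 to 120 CPM in Control. Astrocyte, microglia and oligodendrocyte markers (5 of 5 each) overlapped between all groups, with sums of 2136 to 2739, 258 to 323 and 4520 to 7435 CPM over all libraries. None of these lists had a marker at 0 in every library. For choroid plexus the libraries richest in it were left out below, and the part of the other lists in the Zfp values was not tested. Because these are bulk samples, fewer cells of a type and less RNA per cell cannot be told apart.

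Of the 3 rotated groups, D+V gave called Zfp genes against Control. In D+V, 3 members rose and 1 fell, at a Benjamini-Hochberg adjusted p under 0.05 over all genes in the quasi-likelihood test of edgeR. That is 4 of 263 members, against 0.942% of all 14763 genes tested, or 0.772% higher and 0.169% lower. The difference between the D+V comparison and the others with Control was not tested as such, and all of them share the same 3 controls.

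Zfp748, a KRAB gene of chromosome 13 and of a cluster of Zfp genes there, had 10.5, 11.8, 12.4, 11.7 and 11.8 CPM in D+V, against 6.9, 9.39 and 7.44 CPM in Control. All 5 D+V libraries were above all 3 Control libraries. The log2 fold change was 0.59 (SE 0.13, edgeR adjusted p = 0.0397). The same gene had 8.59, 9.14, 9.94, 9.01 and 7.66 CPM in D-V and between 8.29 and 10.4 CPM in S-V, and neither group differed from Control by the test.

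Zfp597, whose human counterpart is imprinted, had 15, 15.3, 18.2, 17.2 and 16.7 CPM in D+V, against 11.1, 12.1 and 13.5 CPM in Control. The groups did not overlap. The log2 fold change was 0.46 (SE 0.11, edgeR adjusted p = 0.0437). It was the member with the smallest p among positive differences in D-V against Control too, at 0.26 (SE 0.11), where its adjusted p was 0.769.

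Zfp281, a GC-box binding factor known from embryonic stem cells, had 34.0, 48.4, 45.6, 42.2 and 45.6 CPM in D+V, against 30.1, 32.2 and 34.4 CPM in Control. In 4 of 5 D+V libraries it was above every Control library, and D+V replicate 1 lay inside the Control range. The log2 fold change was 0.45 (SE 0.10, edgeR adjusted p = 0.0411). It averaged 35.1 ± 2.48 CPM in D-V and 35.2 ± 2.76 CPM in S-V (SD, n = 5 each).

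Zfp575, which lacks KRAB and lies on chromosome 7, was the only member called lower. It had 7.24, 5.44, 6.12, 7.9 and 6.86 CPM in D+V, against 9.71, 10.2 and 9.83 CPM in Control. All 5 D+V libraries were below all 3 Control libraries, and the Control values were close together. The log2 fold change was -0.53 (SE 0.13, edgeR adjusted p = 0.0472). About 6.61% of its 50-base words occur in transcripts of other genes, so a small share of its reads could belong elsewhere.

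**Figure D1:**
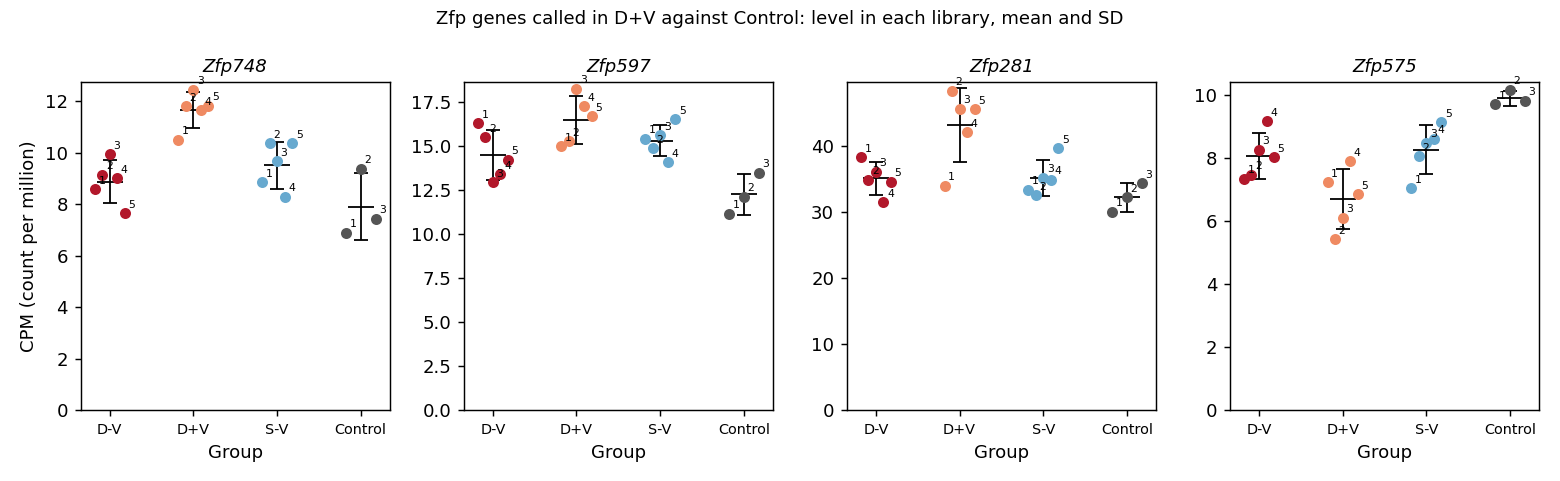
Level in CPM (y axis) of the 4 Zfp genes called in D+V against Control, in each library of the 4 groups (x axis); points are libraries with their replicate number and bars are the mean and SD. Zfp748, Zfp597 and Zfp575 show no overlap between D+V and Control, and Zfp281 overlaps through D+V replicate 1.

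The 4 calls moved with single libraries, with the model and with the correction for base composition. Same-numbered D+V and Control libraries deviated together, and with the replicate number as a block 0 members were called (smallest edgeR adjusted p = 0.0731), among 0.0271% of all genes. A fit of the D+V and Control libraries alone called 0 as well (smallest edgeR adjusted p = 0.362, 0% of all genes). Leaving out Control replicate 1 or 2, or D+V replicate 3, 4 or 5, ended all of them. The count was 30 when D+V replicate 1 was left out, and 8.58% of all genes were called then. It was 17 when Control replicate 3 was left out (2.7% of all genes) and 2 when D+V replicate 2 was (0.784% of all genes). After removal of each library's trend on transcript GC content and length there were 0 calls, and the log2 fold changes became 0.35 for Zfp748, 0.22 for Zfp597, 0.27 for Zfp281 and -0.39 for Zfp575. Leaving out the 6 libraries with Ttr, a choroid plexus gene, over 1000 CPM gave 0 calls as well. They were S-V replicates 2 and 4, D+V replicates 2 and 5 and D-V replicates 3 and 4. As leaving out D+V replicate 5 alone also ended the calls, this fit cannot tell choroid content from the loss of single libraries. The summed endothelium and pericyte markers were also lower in every D+V library than in any Control library, and their part in these calls was not tested.

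Below the threshold in the same comparison stood Zfp260 at a log2 fold change of 0.35 (edgeR adjusted p = 0.0514), Zfp148 at 0.40 (0.0554) and Zfp871 at 0.44 (0.0629). Zfp148, a relative of Zfp281, had 79.6, 98.5, 101, 97.3 and 98.8 CPM in D+V, against 62.2, 75.3 and 83.0 CPM in Control. Here D+V replicate 1 lay inside the Control range and the other 4 above it. Zfp809 showed a larger difference of 0.70 (SE 0.18, edgeR adjusted p = 0.064), with 5.45, 8.93, 6.59, 6.0 and 6.93 CPM in D+V, against 4.38, 3.58 and 4.84 CPM in Control, which did not overlap. On the other side stood Zfp707 at -0.43, Zfp653 at -0.32, Zfp358 at -0.28, Zfp414 at -0.33 and Zfp385a at -0.26. Each of these 5 was lower in all D+V libraries than in any Control library, with edgeR adjusted p between 0.0742 and 0.0997.

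As a set, more members were higher than lower in D+V. The log2 fold change was above 0 for 168 of 263 members, with a median of 0.084, against 49.5% of all genes tested and a median of -0.002. KRAB members were above 0 in 103 of 132 cases (median 0.127), and members without KRAB in 65 of 131 (median -0.004). At an unadjusted p under 0.05, 45 members were higher and 15 lower, which is 22.8% of members against 17.6% of all genes (10.8% higher and 6.86% lower). Groups did not overlap for 22 members (8.37%), against 8.21% of all genes.

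S-V and D-V gave no called member against Control, and no gene of the whole table was called there either (0% of 14763 in each). In S-V, 20 members were higher and 20 lower at an unadjusted p under 0.05 (15.2% of members, against 13.4% of all genes, 7.41% higher and 5.95% lower), and the median log2 fold change was -0.012, against 0.002 over all genes. In D-V, 2 were higher and 23 lower at that limit (9.51% of members, against 6.02% of all genes, 3.37% higher and 2.65% lower), with a median of -0.025, against 0.005 over all genes. DESeq2 called 2 members in S-V (1.46% of all genes) and 0 in D-V (0.0203% of all genes).

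Zfp40, a KRAB gene, had the smallest p among negative differences in S-V against Control, at a log2 fold change of -0.91 (SE 0.22, edgeR adjusted p = 0.157). It had 5.77, 5.41, 6.45, 6.11 and 7.34 CPM in S-V, against 10.2, 11.9 and 13.4 CPM in Control, with no overlap. In D-V it had 6.07, 9.0, 6.5, 6.57 and 5.25 CPM, also below every Control library (log2 fold change -0.80, edgeR adjusted p = 0.658). D+V was split, with 6.94 and 8.65 CPM in replicates 1 and 4 and 14.8, 14.4 and 15.1 CPM in replicates 2, 3 and 5.

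Zfp518a followed the same pattern over the libraries. It had 5.37, 4.74, 5.46, 4.77 and 4.61 CPM in D-V, 5.21, 14.5, 14.9, 6.12 and 10.8 CPM in D+V, 4.82, 5.41, 5.57, 5.27 and 5.21 CPM in S-V and 8.53, 8.57 and 8.91 CPM in Control. D+V replicates 1 and 4 again stood with the lower groups. Of the other members with the smallest p, Zfp24, a factor needed for myelination in mice, was at 0.33 (SE 0.08) in S-V against Control, with 44.6, 44.1, 46.4, 42.9 and 46.0 CPM in S-V and 34.9, 34.8 and 38.2 CPM in Control. These groups did not overlap, and the edgeR adjusted p was 0.145.

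The other members with the smallest p passed the threshold in neither comparison, and both comparisons share the Control libraries. The smallest edgeR adjusted p of any member was 0.145 in S-V and 0.604 in D-V. In S-V against Control they were Zfp111 (0.38), Zfp931 (0.38), Zfp597 (0.33), Zfp326 (0.36) and Zfp260 (0.23) on the higher side and Zfp969 (-0.60), Zfp775 (-0.48), the retroelement-binding Zfp932 (-0.37), Zfp446 (-0.40) and Zfp628 (-0.33) on the lower side, all log2 fold changes. In D-V against Control they were Zfp260 (0.18), Zfp426 (0.17), Zfp868 (0.26), Zfp277 (0.19) and Zfp771 (0.17), and Zfp969 (-0.56), Zfp950 (-0.75), Zfp932 (-0.42), Zfp518a (-0.78) and Zfp738 (-0.49). Zfp969 shares every 50-base word with other transcripts and Zfp932 shares 55.5%, so their reads cannot be assigned with certainty.

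With the 3 rotated groups averaged and set against Control, edgeR called no member and 0% of all genes. DESeq2 called 3 members there, among 1.61% of all genes. At an unadjusted p under 0.05, 18 members were higher and 19 lower (12.9% of all genes, 7.44% higher and 5.44% lower), and the median log2 fold change was 0.007, against 0.002 over all genes. The smallest p among positive log2 fold changes belonged to Zfp597 at 0.35, Zfp748 at 0.35, Zfp260 at 0.26, Zfp281 at 0.24, Zfp24 at 0.23 and Zfp148 at 0.23, and among negative ones to Zfp40 at -0.55, Zfp969 at -0.41, Zfp575 at -0.35, Zfp775 at -0.34, Zfp932 at -0.30 and Zfp653 at -0.25.

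D-V and D+V were both turned in both directions and differed by whether vision was blocked. Of the 7 comparisons this one had the most members under the unadjusted limit. No member passed an adjusted p under 0.05, and 0% of all genes did. At an adjusted p under 0.1, 14 members were lower in D-V and none higher (5.32% of members), against 0.765% of all genes, 0.644% lower and 0.122% higher. At an unadjusted p under 0.05, 73 members were lower and 10 higher, which is 31.6% of members against 13.6% of all genes (8.54% lower and 5.03% higher). The log2 fold change was above 0 for 89 of 263 members, against 52.3% of all genes. The libraries of D-V and D+V did not overlap for 15 members (5.70%), against 1.57% of all genes, and 14 of these 15 were KRAB genes.

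Zfp729b, a KRAB gene of the chromosome 13 cluster, had 7.82, 6.46, 7.08, 6.75 and 5.51 CPM in D-V, against 8.03, 15.6, 17.1, 9.56 and 15 CPM in D+V. Every D-V library was below every D+V library, with D+V replicates 1 and 4 nearest to D-V. The log2 fold change was -0.96 (SE 0.19, edgeR adjusted p = 0.0944). As 40.8% of its 50-base words occur in other transcripts, reads may be divided among relatives.

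Zfp101, a KRAB gene of chromosome 17, had 4.34, 4.4, 3.9, 5.64 and 3.18 CPM in D-V, against 6.25, 8.22, 7.45, 5.73 and 6.99 CPM in D+V. The groups did not overlap, though D-V replicate 4 and D+V replicate 4 came close. The log2 fold change was -0.70 (SE 0.14, edgeR adjusted p = 0.0944). Zfp518a, without KRAB, differed by -1.06 (SE 0.22, edgeR adjusted p = 0.0976), with overlap through D+V replicate 1.

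Zfp638, the mouse counterpart of human ZNF638, which silences unintegrated retroviral DNA, had 49.8, 45.8, 47.3, 43.7 and 38.5 CPM in D-V, against 52.0, 89.9, 77.1, 49.9 and 77.6 CPM in D+V. The groups did not overlap, but D+V replicates 1 and 4 lay within a few CPM of D-V. The log2 fold change was -0.63 (SE 0.15, edgeR adjusted p = 0.0976). The other members of the 14 were Zfp788 (-0.40), Zfp738 (-0.70), Zfp942 (-0.73), Zfp729a (-0.77), Zfp120 (-0.52), Zfp40 (-0.85), Zfp644 (-0.42), Zfp81 (-0.52), Zfp946 (-0.72) and Zfp711 (-0.74), a gene of X-linked intellectual disability in humans.

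**Figure D2:**
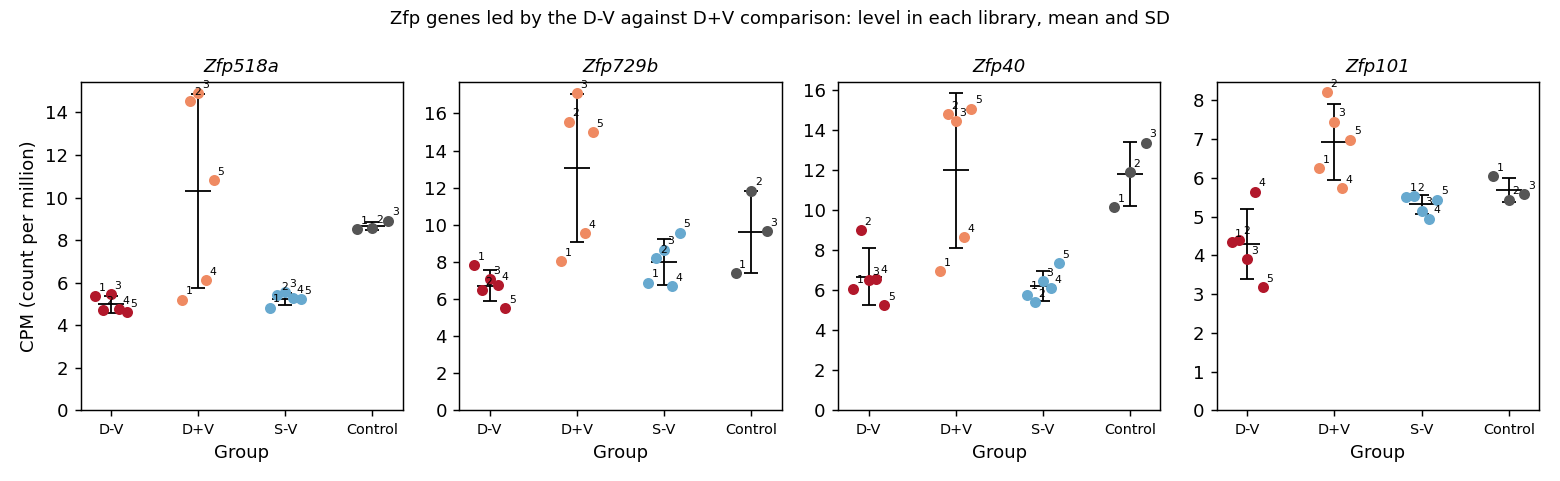
Level in CPM (y axis) of Zfp518a, Zfp729b, Zfp40 and Zfp101 in each library of the 4 groups (x axis); points are libraries with their replicate number and bars are the mean and SD. In Zfp518a, Zfp729b and Zfp40, D+V replicates 1 and 4 lie well below replicates 2, 3 and 5.

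The summed endothelium and pericyte markers were higher in every D-V library than in any D+V library, and their part in these differences was not tested. A single D+V library moved the count of members under the adjusted threshold. Leaving out D+V replicate 1 gave 56 members at an adjusted p under 0.05, among 8.38% of all genes. The count was 12 when D+V replicate 4 was left out, among 0.422% of all genes, and 0 when replicate 2, 3 or 5 was. With all libraries DESeq2 called 25 members among 1.77% of all genes, and limma with voom weights 42 among 5.55%. With the 6 choroid-rich libraries left out, 26 members were lower and 2 higher at an unadjusted p under 0.05, among 3.31% of all genes. The smallest edgeR adjusted p of a member was then 0.998. That fit kept D-V replicates 1, 2 and 5 and D+V replicates 1, 3 and 4. A fit of only D-V and D+V left no member under an adjusted p of 0.1 (smallest edgeR adjusted p = 0.282). The same was so with no filter, or without D-V replicate 1, 2, 3 or 5.

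The KRAB class held most of the members that were lower in D-V than in D+V. Its median log2 fold change was -0.150, with 25 of 132 above 0, and 47 of its genes were lower at an unadjusted p under 0.05. Members without KRAB had a median of -0.014, with 64 of 131 above 0 and 26 lower at that limit. All genes tested had a median of 0.009.

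**Figure D3:**
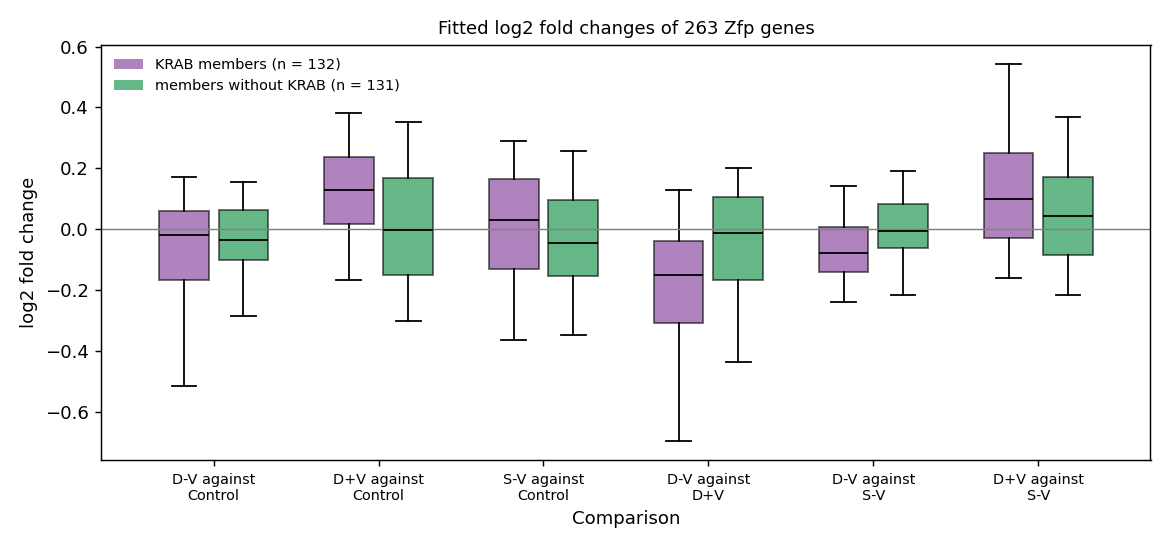
Log2 fold changes (y axis) of KRAB members and members without KRAB in 6 comparisons (x axis); boxes give the quartiles with the median as a line, and whiskers reach the 5th and 95th percentiles. In D-V against D+V the KRAB median is -0.150 and that of members without KRAB is -0.014.

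Within the members of lowest GC content the 2 classes had similar medians. Among members with transcripts under 42% GC, KRAB genes had a median of -0.316 in D-V against D+V (n = 57) and members without KRAB one of -0.325 (n = 19). Together 58 of these 76 members were lower at an unadjusted p under 0.05 and 3 were above 0. Of all 1425 genes tested under 42% GC, 506 were lower and 2 higher at that limit, 35.6% in all. Their median was -0.166, and 17.5% of them were above 0. At 50% GC or more, 57 of 92 members were above 0 with a median of 0.070, against 0.058 over all 7884 such genes.

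In D+V against Control the relation to GC content had the opposite sign. The D+V libraries are the tested group here and the reference in D-V against D+V, so opposite signs are partly built in. Under 42% GC, 70 of 76 members were above 0 with a median of 0.256, against a median of 0.242 and 87.9% above 0 over all such genes. From 42% to 50% GC, 80 of 95 members were above 0 with a median of 0.105, against 0.092 over all genes in that range. At 50% GC or more, 18 of 92 members were above 0 with a median of -0.111, against -0.085 over all such genes. Spearman's rho between GC content and log2 fold change across the 263 members, which share libraries and controls, was 0.726 in D-V against D+V and -0.695 in D+V against Control. Over all 14743 genes with a known GC content it was 0.424 in D-V against D+V and -0.529 in D+V against Control.

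**Figure D4:**
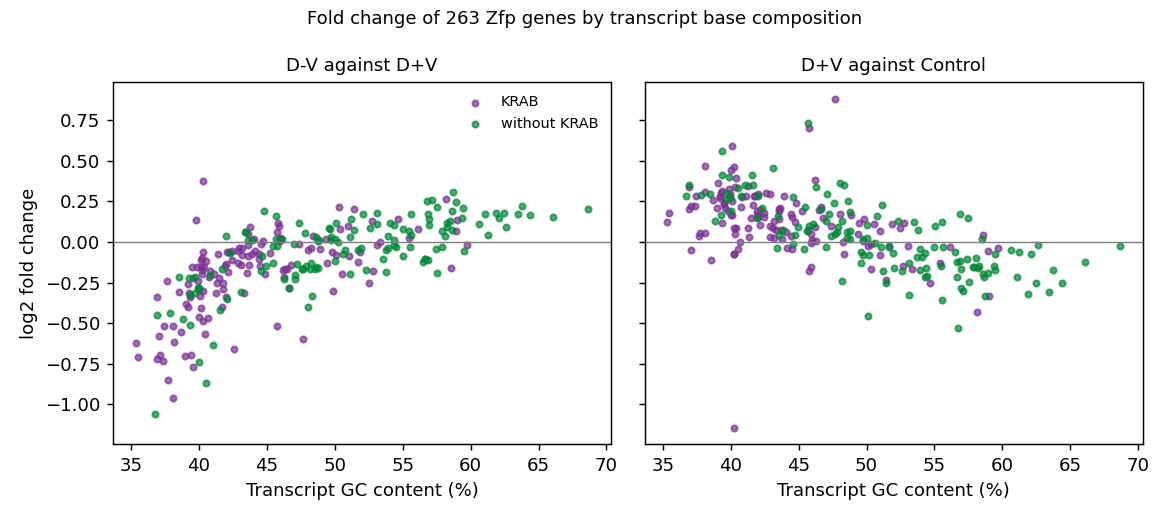
Log2 fold change (y axis) against transcript GC content in percent (x axis) for 263 Zfp genes in D-V against D+V (left) and D+V against Control (right); each point is a gene, coloured by KRAB class. Of the 76 members under 42% GC, 3 lie above 0 on the left and 70 on the right.

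Removing the GC and length trends moved the member median in D-V against D+V to -0.028 and in D+V against Control to 0.002. A difference between the classes remained in D-V against D+V. The KRAB median was then -0.059, with 46 of 132 above 0, and that of members without KRAB was -0.007. D-V against D+V had no called member with or without the trends, and D+V against Control lost its 4. In D-V against D+V, 33 members were lower and 2 higher at an unadjusted p under 0.05 in that fit, where 7.16% of all genes were under that limit. Whether base composition of the libraries or expression of the genes sets these medians was not tested.

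Library by library the same order could be seen. The median shift of the 76 members under 42% GC from their mean over all libraries was -0.065, -0.068, -0.112, -0.205 and -0.274 on the log2 scale in D-V replicates 1 to 5. In D+V it was -0.032, 0.329, 0.276, 0.110 and 0.299, in S-V -0.086, 0.013, -0.058, -0.087 and 0.032, and in Control -0.201, -0.034 and 0.153. D+V replicate 1 was the only D+V library below 0, and the Control libraries spanned much of the range between the groups. The slope of all genes on GC content was between -0.035 and 0.117 log2 units per 10 points of GC in D-V, -0.117 and -0.023 in D+V, -0.066 and -0.002 in S-V and 0.041 and 0.157 in Control.

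**Figure D5:**
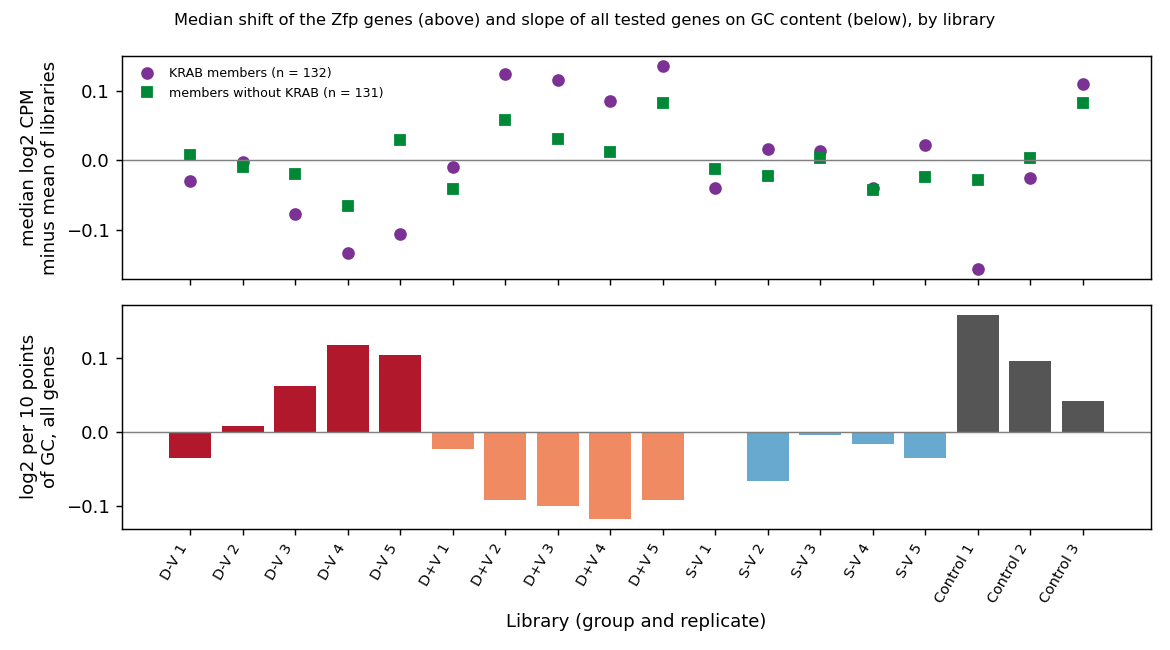
For each library (x axis, by group), the median log2 CPM of KRAB members and of members without KRAB minus their mean over all libraries (above), and the slope of all genes tested on GC content in log2 units per 10 points of GC (below). The 5 D+V slopes are below 0, at -0.117 to -0.023, and the 3 Control slopes are above 0, at 0.041 to 0.157.

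In the remaining pairs edgeR called no member and 0% of all genes. DESeq2 called 0 members in D-V against S-V (0.0271% of all genes) and 12 in D+V against S-V (1% of all genes). In D-V against S-V the median was -0.041 against 0 over all genes, with 8 members higher and 11 lower at an unadjusted p under 0.05 (6.29% of all genes, 3.37% higher and 2.93% lower). Zfp24 (-0.25), Zfp931 (-0.35) and Zfp111 (-0.29) led the lower side and Zfp446 (0.33), Zfp362 (0.20) and Zfp579 (0.26) the higher. In D+V against S-V the median was 0.062 against -0.005 over all genes, with 55 higher and 11 lower at that limit (25.1% of members, against 12.8% of all genes, 8.13% higher and 4.69% lower). Leaving out D+V replicate 1 gave 46 called members there, among 10.1% of all genes. Zfp40 (0.97), Zfp518a (0.99) and Zfp729a (0.74) led the higher side, and Zfp111 (-0.28), Zfp358 (-0.19) and Zfp428 (-0.22) the lower.

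Many Zfp genes arose by tandem duplication and lie in clusters. By GENCODE M21, 141 members have another member within 250 kb, chromosome 7 holds 69 and 11 clusters hold 5 or more members each. The 9 members of the chromosome 13 cluster, all with KRAB, were Zfp874a, Zfp874b, Zfp58, Zfp87, Zfp748, Zfp729b, Zfp729a, Zfp738 and Zfp65. All 9 were below 0 in D-V against D+V, with a median of -0.382, and 7 had an unadjusted p under 0.05. Over all genes tested, 52.3% were above 0 in that comparison and 13.6% had an unadjusted p under 0.05. In D+V against Control none of the 9 was below 0 (median 0.242), and 49.5% of all genes were above 0. Both comparisons hold the same D+V libraries, on opposite sides, so opposite signs are partly built in. Of the 12 members of a chromosome 17 cluster, 11 were below 0 in D-V against D+V (median -0.261), the exception being Zfp414. It lacks KRAB and its transcript has 58.73% GC, against 37.45% to 44.54% in the other 11. KRAB and GC content cannot be told apart there. A cluster of 5 members without KRAB on chromosome 7 (Zfp628, Zfp579, Zfp524, Zfp865 and Zfp580) went the other way, with none below 0 and a median of 0.170. Transcript GC content was 38.1% to 44.8% in the chromosome 13 cluster and 57.0% to 66.1% in this chromosome 7 cluster. Its part in the cluster values was not tested. The clusters named here were picked from the 11 after their values were seen. The chromosome 13 genes share sequence, so reads may be assigned among them.

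By role, the 14 promoter and enhancer factors included 1 called gene, Zfp281, in D+V against Control. The list as tested held 15 genes with a median of -0.023, 7 of them above 0. Over all genes in that comparison the median was -0.002 and 49.5% were above 0. Of all genes, 0.942% were called and 17.6% had an unadjusted p under 0.05. Zfp644, which works with the histone methyltransferases G9a and GLP, was at 0.41, Zfp462 at 0.36, Zfp143 at 0.04 and Zfp384 at -0.07. None of the 12 RNA-binding or other non-DNA-binding members was called by edgeR (2 higher and 1 lower at an unadjusted p under 0.05), including Zfp36, which promotes decay of messages with AU-rich elements, at -0.09. Of 7 tested genes in the imprinting and retroelement list, 5 were above 0 with a median of 0.138, and edgeR called none (2 higher at an unadjusted p under 0.05), with Zfp445 at 0.07 and Zfp932 at -0.11. Zfp91 had been listed there but had no KRAB hit.

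Of the 16 genes with roles in neural development or brain disorders, 11 were above 0 in D+V against Control, and edgeR called none (2 higher at an unadjusted p under 0.05). Of all genes, 49.5% were above 0 there and 17.6% were under that limit. Zfp292 was at 0.33, Zfp711 at 0.27, Zfp423 at -0.12 and Zfp521 at -0.46. In D-V against D+V, with the same D+V libraries as the reference, the list had a median of -0.126 with 3 above 0. Zfp292 was at -0.87. All genes had a median of 0.009 there, with 52.3% above 0. Zfp189, tied to stress resilience in mice, was at 0.17 in D+V, 0.10 in D-V and 0.29 in S-V against Control.

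The silencing machinery that KRAB proteins recruit gave no called gene in any comparison with Control by edgeR. DESeq2 called 0 in D-V (0.0203% of all genes), 2 in D+V (4.95%), 1 in S-V (1.46%) and 1 for the rotated mean (1.61%). Of 34 listed partners 33 were tested. In D+V against Control 21 were above 0 with a median of 0.053, against 49.5% of all genes and a median of -0.002. There 4 were higher and 1 lower at an unadjusted p under 0.05, where 17.6% of all genes were under that limit. At that limit 1 was higher and 1 lower in D-V (6.02% of all genes), and 2 were higher and 2 lower in S-V (13.4% of all genes). Cbx1, the heterochromatin protein HP1 beta, was at 0.33 in D-V (edgeR adjusted p = 0.545), 0.28 in D+V (0.0809) and 0.40 in S-V (0.0929) against Control. Trim28, the KRAB co-repressor, was at -0.16 in D+V and -0.14 in S-V, and the heterochromatin remodeller Atrx at -0.62 in D-V and -0.55 in S-V. Hdac2 was at 0.25 in S-V, Cbx5 at 0.24, Mphosph8 at 0.30 and Smarcad1 at 0.31 in D+V against Control. Among 59 tested Zbtb, Zscan and Zkscan genes, the other large finger families, 1 was called in D+V against Control, against 0.942% of all genes. Their median there was 0.046, against -0.002 over all genes.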

How the data were processed

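Per the labels' protocols, polyadenylated RNA was sequenced from 18 hippocampus samples. The authors deposited estimated counts for each gene, 7.35% of them not whole. The submitters' processing notes name DESeq2, HISAT2, StringTie 1.3.1 and Bowtie2 2.2.8, in no stated role. Build, annotation and strand setting were not given in the sources used here; reads of overlapping genes cannot be separated, and counts carry no molecular identifiers.

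Counts were rounded, filtered with filterByExpr (14763 genes, 99.97% of counts), scaled by TMM and tested in 7 comparisons with the quasi-likelihood test of edgeR 4.0.16 (R 4.3.3) with robust spread, all 18 libraries in 1 fit of 4 groups. A gene was called at an adjusted p under 0.05 over all genes. CPM was the count over the library total. GC content, length, finger patterns and 50-base words came from GENCODE M21 transcripts (all 263 members matched). KRAB domains were found with jackhmmer of HMMER 3.4 (3 rounds) from the first 65 residues of Zfp809.

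The members and lists were chosen with earlier results of these data known. Named genes were the called members, the smallest p in each direction (6 against Control, 3 among rotated groups), the 8 highest levels, those at the limit and list members of known role; the rest of the 14 at an adjusted p under 0.1, Zfp809 and the cluster genes were chosen after their values were seen. Alternatives were other scalings and filters, DESeq2 1.42.0, limma 3.58.1, trend removal, a block and left-out libraries. Samples of a number were checked for shared deviations from their group means: all 3 D+V and Control pairs had a correlation over 0.1 (0.107 to 0.168), so that comparison is also given with a replicate block, while over all group pairs 9 of 24 did (-0.452 to 0.34). The labels do not say what the numbers mark. The model was tested on simulated data for D+V against Control. It recovered 16% of 1.3-fold changes, 50% of 1.5-fold, 82% of 2-fold and 90% of 4-fold changes. Of its calls there, 6.3% were false. The simulated counts were independent draws around a common mean of each gene, with no trend on GC content and no deviations shared between libraries. These rates therefore hold for such data only and do not cover calls that depend on those features.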

Additional observations from a re-analysis of the deposited data

Results flagged for a closer look

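Among the named members and the summed levels of all Zfp members and of KRAB members, 6 of 114 groups had a library far from the others. Chance gives about 1 in 20. In D+V, replicate 1 was the low library of 2 genes. Zfp148 had 79.6 CPM there, with the other D+V libraries between 97.3 and 101 CPM, and Zfp871 had 77.3 CPM there, with the others between 106 and 115 CPM. Zfp707 had 6.92 CPM in D+V replicate 3, with the others between 8.23 and 8.66 CPM. Zfp148 had 90.2 CPM in D-V replicate 1, with the others between 74.4 and 78.7 CPM. Zfp868 had 16.2 CPM in D-V replicate 2, with the others between 13.6 and 14.3 CPM. Zfp871 had 91.3 CPM in S-V replicate 2, with the others between 81.3 and 83.9 CPM.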

How the results depend on the processing

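The 66 values of named genes gave 1464 alternative values, of which 1342 kept direction and side of the threshold, 50 lost the call, 72 gained it and 0 changed sign. Only the 4 called genes could lose a call. Zfp748, Zfp281 and Zfp597 each lost it in 12 of 20 alternatives, and Zfp575 in 14 of 20. The other named genes were chosen from these data for their small p, so a kept sign says little about them. In D+V against Control, 4 members were called with the settings of the report (0.942% of all genes). Upper quartile scaling called 1 (0.596% of all genes) and no filter 2 (0.508% of all genes). Among members of at least 10 CPM 2 were called. At an adjusted p under 0.1 there were 16, and the share of all genes at that limit is not given here. DESeq2 called 21 (4.95% of all genes) and limma voom 44 (12.7% of all genes). The count was 0 with only the groups compared, with GC and length trends removed or with the 6 choroid-rich libraries left out. Leaving out those 6 was an alternative chosen after seeing the data. With a replicate block 0 members were called, and the median was 0.095. With the block and the trends removed 0 were called as well, and the median was -0.004. In the other comparisons some or none of the same-numbered pairs had a correlation over 0.1, with values up to 0.34, and the block changed no call there. The D+V median was 0.002 with the trends removed, against 0.084 without. Leaving out single libraries gave 0 to 30 called members and medians of 0.022 to 0.143, and 0 to 1 called silencing partners.

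DESeq2 and limma voom called 2 and 7 members in S-V against Control (1.46% and 2.15% of all genes), 3 and 9 for the rotated mean (1.61% and 2.58%), 25 and 42 in D-V against D+V (1.77% and 5.55%) and 12 and 53 in D+V against S-V (1% and 13.2%). Of the silencing partners DESeq2 and limma voom called 1 and 1 in S-V, 2 and 3 in D+V and 1 and 1 for the rotated mean. In D-V against D+V, 14 members passed an adjusted p under 0.1, and the median was -0.028 with the trends removed and -0.024 with the block as well. Leaving out single libraries gave 0 to 56 called members there and 0 to 46 in D+V against S-V, medians of -0.047 to 0.060 in S-V against Control and of -0.039 to 0.068 for the rotated mean, the highest of each without Control replicate 3. The cause of these shifts was not tested. A fit of only the groups compared was not run for the rotated mean.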
